A study of Mus musculus with 10 samples.

Results

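The nuclear genes for subunits of the oxidative phosphorylation complexes were compared in RNA-seq of midbrains from mouse embryos at embryonic day 14.5. The members were the protein-coding genes of the count table whose symbols begin with Ndufa, Ndufb, Ndufc, Ndufs, Ndufv, Uqcr, Cox4i, Cox5, Cox6, Cox7, Cox8 or Atp5, the genes Sdha to Sdhd, and Cyc1. The rule dropped 8 assembly factors and 3 pseudogenes and left 89 of 30935 genes, of which 85 were among the 15288 genes tested. 39 members belonged to complex I, 4 to complex II, 9 to complex III, 20 to complex IV and 17 to complex V. 5 libraries came from embryos homozygous for a deletion of HAR.321 at the Rbfox1 locus, written Rbfox1 ΔHAR.321/ΔHAR.321 and labelled 2xHAR.321 Knockout. The other 5 libraries came from wild-type embryos, written Rbfox1 +/+. The deletion libraries were numbered 2, 3, 4, 5 and 6 and the wild-type libraries 1, 2, 4, 5 and 6, and values below follow that order. Strain, sex, litters and the number of deletion lines are not stated in the sources used here.

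Oxidative phosphorylation takes place in the inner membrane of mitochondria. Complex I passes electrons from NADH to ubiquinone, complex II passes electrons from succinate to ubiquinone, complex III passes them on to cytochrome c, and complex IV passes them to oxygen. Complexes I, III and IV pump protons as they do so, and complex V, the ATP synthase, uses the returning protons to make ATP. Complexes I, III, IV and V are built from nuclear and mitochondrial genes, and complex II from nuclear genes alone. The mitochondrial genes were not analysed here. Neurons rely on this pathway for most of their ATP, while neural progenitors draw more on glycolysis.

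Each library held between 16246892 and 20255728 counts, and members made up 0.717% to 0.843% of them in the deletion libraries and 0.802% to 0.861% in the wild-type libraries. The deleted element is not the Rbfox1 gene itself, which stood at 161 ± 13.7 CPM in the deletion group and 149 ± 11.0 CPM in the wild-type group (SD, n = 5 each; log2 fold change 0.11, SE 0.07). CPM is the usual depth-scaled count, here with TMM library factors. All 11 midbrain markers listed were expressed, at summed levels of 859.6 to 1071 CPM in the deletion libraries and 909.7 to 1058 CPM in the wild-type libraries. Hindbrain genes summed to at most 2.35 CPM in the deletion libraries and 1.67 CPM in the wild-type libraries, and muscle genes to at most 2.37 CPM in the deletion libraries and 1.77 CPM in the wild-type libraries. Forebrain genes summed to 88.5 to 115 CPM in the deletion libraries and 83.6 to 120.4 CPM in the wild-type libraries. Of the 3 tested, 2 were lower and 1 was higher (median log2 fold change -0.19). Only the higher gene had an unadjusted p under 0.05 in edgeR. In whole tissue, fewer cells of a type and less RNA per cell cannot be told apart.

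Most members were somewhat lower in the deletion group. The log2 fold change, deletion over wild-type, was below 0 for 78 of the 85 tested members and above 0 for 7, with a median of -0.15. Over all 15288 tested genes, 50.7% were below 0 and the median was 0.00 (-0.0024). Ndufc2 of complex I and Cox7c of complex IV fell, the only members to pass edgeR's quasi-likelihood test with Benjamini-Hochberg adjustment at 0.05. Of all tested genes 0.0589% passed in that direction, and none passed upwards (0 of 15288, or 0.0%; DESeq2 called 123 genes upwards and limma-voom 1). At an unadjusted p under 0.05, 37 members were lower (43.5%), against a background of 4.92% of all tested genes, and none was higher (background 5.62%). In 14 members every deletion library lay below every wild-type library, where the background was 1.26%, and in 0 members every deletion library lay above, where it was 1.22%. These were Ndufa1, Ndufa12, Ndufa13, Ndufb8, Ndufc2 and Ndufs6 of complex I, Sdhd of complex II, Uqcrfs1 of complex III, Cox5b, Cox6b1, Cox7c, Cox8a and Ndufa4 of complex IV, and Atp5pb of complex V.

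Summed over all members, the level was 7691 ± 470.0 CPM in the deletion group and 8354 ± 236 CPM in the wild-type group (SD, n = 5 each), a difference of -7.94%. The difference in summed level was -10.3% for complex I, -2.31% for complex II, -7.33% for complex III, -11.8% for complex IV and -5.72% for complex V. Complex V carried the most counts, with 3200.0 ± 205 CPM in the deletion group and 3395 ± 110.0 CPM in the wild-type group. The median log2 fold change was -0.16 in complex I, -0.02 in complex II, -0.14 in complex III, -0.18 in complex IV and -0.12 in complex V. With each library's trend on transcript length removed, as described below, these medians were -0.06, 0.02, -0.01, -0.06 and -0.02 from complex I to complex V. The sign thus turned for complex II, which has 4 genes. With the trend fitted on RefSeq-matched lengths the complex II median was -0.005 and its sign did not turn. The complexes share libraries and were not tested against each other.

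**Figure D1:**
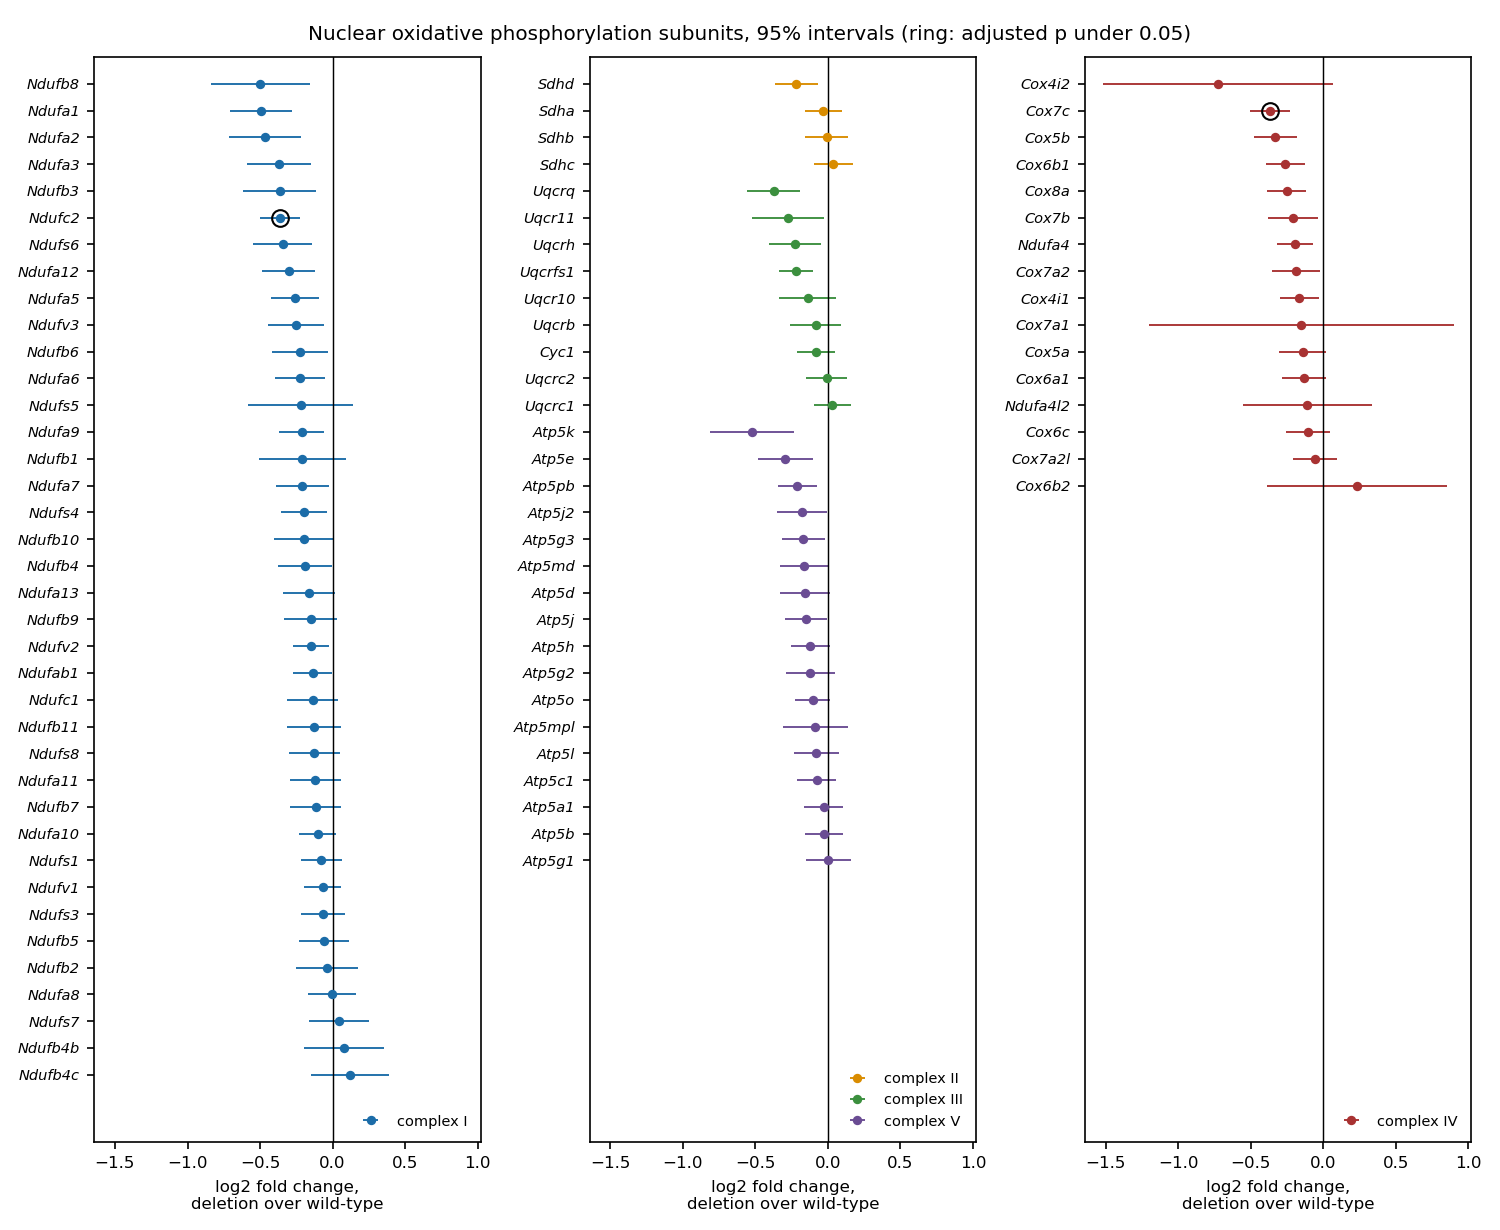
Log2 fold change, deletion over wild-type, of 84 tested members, with 95% intervals from edgeR; complex I is on the left, complexes II, III and V are in the middle and complex IV is on the right. 77 of the 84 points lie left of 0, and the rings mark Ndufc2 and Cox7c, which passed at an adjusted p of 0.0373.

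Transcript length moved with this shift. Member transcripts are short: their matched RefSeq length had a median of 729 bases, against 2775 bases over all tested genes. All tested genes under 1 kb (1126 genes) had a median log2 fold change of -0.11, with 844 of them below 0 and 19.0% lower at an unadjusted p under 0.05. The 12867 tested genes of 1 kb or more had a median of 0.01, with 3.7% lower at that level. Among members, the 57 under 1 kb had a median of -0.17 and 50.9% lower at that level, and the 25 of 1 kb or more had a median of -0.08 and 32.0% lower. Across 82 members, log2 fold change and log2 length had Pearson's r = 0.32 and Spearman's rho = 0.36, given as a description of genes that share the same libraries. With each library's trend on transcript length removed, 57 of 85 members were below 0 (background 50.1%) and the median was -0.05. In that fit 15 were lower at an unadjusted p under 0.05 (background 3.45%). The trend was on the longest transcript of each gene, and Ndufb1, Ndufb4b and Ndufb4c, with no length, were not adjusted. Neither Ndufc2 nor Cox7c passed in that fit, nor did any other gene in edgeR (0 of 15288, with 3.45% lower and 4.3% higher at an unadjusted p under 0.05).

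**Figure D2:**
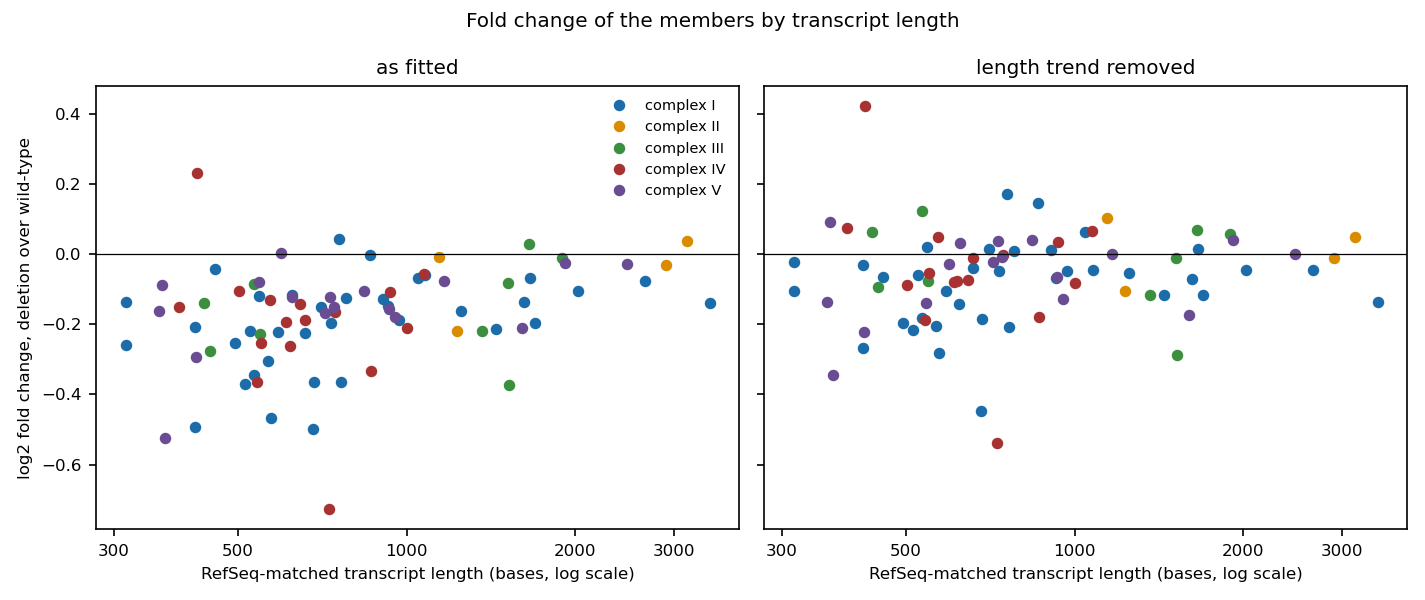
Log2 fold change, deletion over wild-type, of the 82 tested members with a matched RefSeq transcript length (bases, log axis). Values are as fitted on the left and with each library's trend on longest transcript length removed on the right. Most members under 1 kb lie below 0 on the left (median -0.17); on the right the points lie around a median of -0.05 over all members.

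The shift was not the same in every deletion library. The median deviation of members from the wild-type mean, in log2 CPM, was -0.14, -0.14, -0.02, -0.21 and -0.26 in the deletion libraries, against 0.01, 0.00 (0.0021), 0.05, 0.00 (0.0022) and -0.05 in the wild-type libraries. Deletion 4 lay inside the wild-type range, and the other 4 deletion libraries lay below it. Deletion 4 was the highest deletion library for 51 of the 85 members, while deletion 6 was the lowest for 37 and deletion 5 for 23. A slope of log2 CPM on log2 length was fitted in each library over 10618 genes with a mean log2 CPM above 3. Each gene was first centred on its mean over the 10 libraries. Per doubling of length the slope was 0.04, 0.03, -0.06, 0.05 and 0.10 in the deletion libraries. In the wild-type libraries it was -0.04, -0.01, -0.06, -0.05 and -0.01. Deletion 4 was thus the 1 deletion library with a slope below 0, like all 5 wild-type libraries. Deletion 6, with the lowest members, had the steepest positive slope. Centring makes the slopes balance around 0, so a sign gives only the side of the 10-library mean. Without deletion 4, 23 members passed edgeR's test, all lower (background 1.43%), and 55 were lower at an unadjusted p under 0.05 (background 7.91%). Without deletion 3 only 1 member passed (background 0.0194%), and without wild-type 2 there were 3 (background 0.201%). Without any 1 of the other 7 libraries, deletion 6 among them, 0 members passed, and between 0 and 3 of all genes did. Without deletion 6, 25 members were lower at an unadjusted p under 0.05 (29.4%, background 3.9%).

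**Figure D3:**
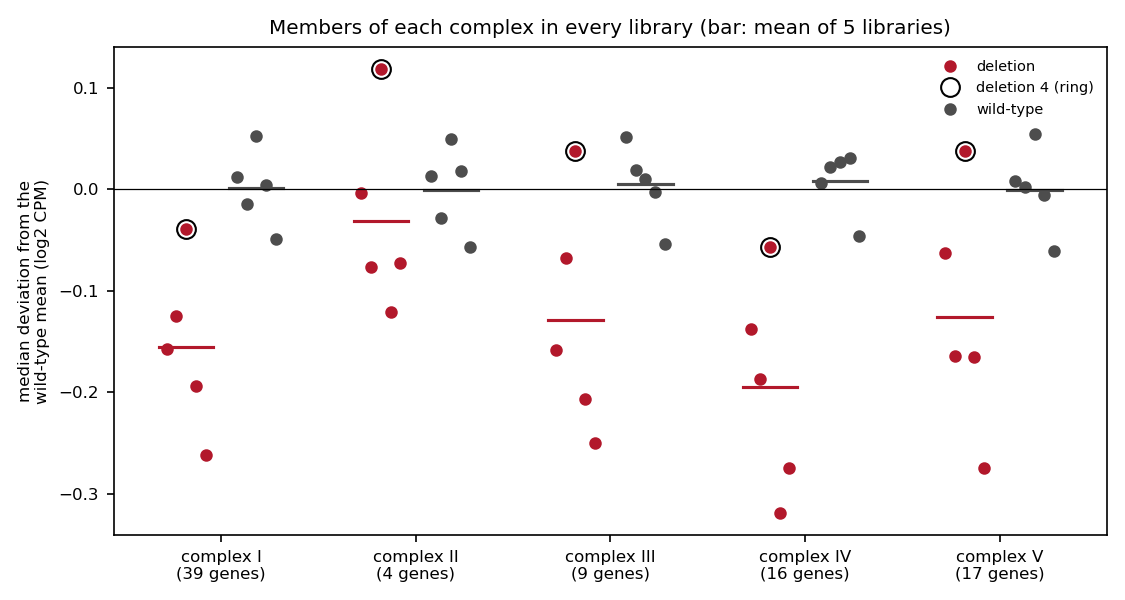
Median deviation of the tested members of each complex from the wild-type mean (log2 CPM) in each of the 5 deletion libraries and 5 wild-type libraries, with a bar at the mean of each group and a ring around deletion 4. Deletion 4 is the highest deletion library in all 5 complexes, at 0.12 in complex II and -0.06 in complex IV.

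Complex I, the largest complex, carries electrons in a matrix arm and pumps protons in a membrane arm. Its 7 nuclear core subunits hold the cofactors of the matrix arm or its fold, and the accessory subunits surround the core. The accessory subunits of the matrix arm had log2 fold changes below 0 in all 9 cases (median -0.25), and all 9 had an unadjusted p under 0.05. Those of the membrane arm were below 0 in 20 of 20 cases (median -0.18), and 7 had an unadjusted p under 0.05. The core subunits were below 0 in 6 of 7 cases (median -0.08), and 1 had an unadjusted p under 0.05. Of all tested genes 4.92% were lower at that level, and of those under 1 kb 19.0%. The median RefSeq length was 566 bases in the matrix arm accessory subunits, 683 bases in those of the membrane arm and 1046 bases in the core. With the length trend removed the medians were -0.12, -0.05 and 0.01 in the same order. In the same order 3, 4 and 0 were lower at an unadjusted p under 0.05 (background 3.45%). In that fit 1 core subunit, Ndufs7, was higher at that level (log2 fold change 0.17, SE 0.08, background 4.3%).

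Ndufc2, an accessory subunit of the membrane arm, had 54.5, 49.1, 54.1, 55.0 and 53.0 CPM in the deletion libraries, against 65.6, 70.9, 71.2, 68.3 and 66.1 CPM in the wild-type libraries. The lowest wild-type library lay well above the highest deletion library. It fell by 22.3% (-0.36 in log2 fold change, SE 0.07, 95% interval -0.50 to -0.23; edgeR adjusted p = 0.0373). With the length trend removed its log2 fold change was -0.18 (SE 0.07, edgeR adjusted p = 0.557). Leaving out any 1 library other than deletion 4 or wild-type 2 ended this call, with edgeR adjusted p of 0.0842 to 0.128 and log2 fold changes of -0.38 to -0.34.

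Ndufa1, a short membrane arm subunit encoded on the X chromosome, had 17.1, 17.2, 19.9, 14.01 and 19.1 CPM in the deletion libraries, against 23.2, 24.4, 26.7, 23.8 and 24.9 CPM in the wild-type libraries. Its groups did not overlap either (log2 fold change -0.49, SE 0.10, edgeR adjusted p = 0.0601). Ndufa2, a matrix arm subunit, had 23.6, 25.8, 34.6, 20.03 and 24.9 CPM in the deletion libraries, against 38.2, 37.0, 29.2, 38.4 and 35.7 CPM in the wild-type libraries. Here deletion 4 lay above wild-type 4, the lowest of its group, so the groups overlapped (log2 fold change -0.47, SE 0.12, edgeR adjusted p = 0.112). Ndufb8, a membrane arm subunit, had 4.25, 3.91, 4.71, 3.94 and 4.42 CPM in the deletion libraries, against 7.23, 5.78, 5.91, 6.06 and 5.03 CPM in the wild-type libraries. All 5 deletion libraries were below all 5 wild-type libraries at this low level, and only 69 to 139 counts per library stood behind it (log2 fold change -0.50, SE 0.16, edgeR adjusted p = 0.228). DESeq2, which gave an adjusted p to 75 of the 85 members, called 6 members of complex I at an adjusted p under 0.05 (background 1.44%), all lower: Ndufa1, Ndufa2, Ndufa3, Ndufa12, Ndufc2 and Ndufs6.

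The core subunits, which were not tested against the accessory ones, had fold changes nearer to 0. Ndufv1, which binds NADH and FMN, stood at 97.9 ± 3.73 CPM in the deletion group and 103 ± 5.53 CPM in the wild-type group (SD, n = 5 each; log2 fold change -0.07, SE 0.06). Ndufv2, which holds an iron-sulfur cluster next to it, stood at 94.0 ± 2.64 CPM in the deletion group and 104 ± 5.74 CPM in the wild-type group, and was the core subunit with the smallest p (log2 fold change -0.15, SE 0.06, unadjusted p = 0.0236, edgeR adjusted p = 0.377). Ndufs1, the largest core subunit and a carrier of iron-sulfur clusters, had a log2 fold change of -0.08 (SE 0.07). Ndufs3, a subunit of the arm that holds no cofactor, had -0.07 (SE 0.07). Ndufs8, which carries iron-sulfur clusters, had -0.13 (SE 0.08).

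Ndufs7, which holds the last iron-sulfur cluster before ubiquinone, had 51.9, 52.8, 74.1, 47.5 and 47.2 CPM in the deletion libraries, against 54.1, 50.3, 54.9, 51.8 and 54.2 CPM in the wild-type libraries. Deletion 4 alone stood far above the other 9 libraries, so that the group mean was higher while the other 4 deletion libraries did not reach the wild-type mean (log2 fold change 0.04, SE 0.10, 95% interval -0.17 to 0.25). The 2 other members of complex I with a fold change above 0 were Ndufb4b, at 9.38 ± 1.32 CPM in the deletion group and 8.88 ± 0.641 CPM in the wild-type group (log2 fold change 0.08, SE 0.13), and Ndufb4c, at 10.3 ± 1.10 CPM in the deletion group and 9.53 ± 1.05 CPM in the wild-type group (log2 fold change 0.12, SE 0.13). Both are near-identical copies of Ndufb4, which stood at 24.5 ± 1.93 CPM in the deletion group and 27.9 ± 1.91 CPM in the wild-type group (log2 fold change -0.19, SE 0.09), so the split of reads among the 3 genes is uncertain. Ndufs5 is uncertain too: its transcribed pseudogene Ndufs5-ps held 449 to 691 counts per library, 3.95 times the counts of Ndufs5 itself.

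Complex II, or succinate dehydrogenase, also belongs to the TCA cycle, and it differed from wild-type levels in 1 subunit at an unadjusted p under 0.05. That subunit, Sdhd, was lower (background 4.92% of all tested genes). Sdha, which binds FAD and oxidises succinate, stood at 178 ± 14.5 CPM in the deletion group and 182 ± 5.71 CPM in the wild-type group (SD, n = 5 each; log2 fold change -0.03, SE 0.06, 95% interval -0.16 to 0.10). Sdhb, the iron-sulfur subunit, stood at 123 ± 8.91 CPM in the deletion group and 124 ± 12.04 CPM in the wild-type group (log2 fold change -0.01, SE 0.07, 95% interval -0.16 to 0.14). Sdhc, a membrane anchor, stood at 112 ± 8.44 CPM in the deletion group and 109 ± 6.01 CPM in the wild-type group (log2 fold change 0.04, SE 0.07, 95% interval -0.10 to 0.17). These 3 intervals all include 0, and none reaches a change of 0.2 on the log2 scale.

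Sdhd, the other membrane anchor, had 53.5, 59.7, 60.8, 55.9 and 54.3 CPM in the deletion libraries, against 67.7, 65.5, 62.9, 73.3 and 61.4 CPM in the wild-type libraries. The highest deletion library, deletion 4, lay just below the lowest wild-type library, wild-type 6. Its difference did not pass over all genes (log2 fold change -0.22, SE 0.07, unadjusted p = 0.00553, edgeR adjusted p = 0.223), and with the length trend removed it was -0.11 (SE 0.07). The difference between Sdhd and the other 3 subunits was not tested. Sdhd has a matched transcript of 1231 bases, against 1142 bases for Sdhb, 2900 bases for Sdha and 3171 bases for Sdhc.

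Complex III joins a catalytic core, formed with the mitochondrial cytochrome b, to a pair of large core proteins and a set of small subunits. The 5 small subunits were lower in 5 of 5 cases (median log2 fold change -0.23, 3 with an unadjusted p under 0.05, background 4.92%). After removal of the length trend 3 of the 5 were lower, the median was -0.08 and 1 was lower at an unadjusted p under 0.05 (background 3.45%). The core proteins Uqcrc1, at 177 ± 12.3 CPM in the deletion group and 174 ± 7.20 CPM in the wild-type group (log2 fold change 0.03, SE 0.06), and Uqcrc2, at 157 ± 5.75 CPM in the deletion group and 158 ± 16.6 CPM in the wild-type group (log2 fold change -0.01, SE 0.07), lay within 0.03 of no difference on the log2 scale. Cyc1, the cytochrome c1 subunit that hands electrons to cytochrome c, stood at 131 ± 9.04 CPM in the deletion group and 138 ± 6.49 CPM in the wild-type group (log2 fold change -0.08, SE 0.06).

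Uqcrfs1, the Rieske iron-sulfur protein, had 121, 119, 125, 118 and 117 CPM in the deletion libraries, against 145, 139, 145, 138 and 132 CPM in the wild-type libraries. The groups did not overlap, and the spread within each was small (log2 fold change -0.22, SE 0.06, edgeR adjusted p = 0.119). Its transcript has 1363 bases, against a median of 729 over the members and 2775 over all tested genes. With the length trend removed the log2 fold change of Uqcrfs1 was -0.12 (SE 0.05). Uqcrq, a small subunit next to cytochrome b, had 54.9, 55.9, 60.8, 41.4 and 49.6 CPM in the deletion libraries, against 71.4, 70.2, 59.6, 67.5 and 71.5 CPM in the wild-type libraries. Deletion 4 was above wild-type 4, and the other libraries kept apart (log2 fold change -0.37, SE 0.09, edgeR adjusted p = 0.0874; -0.29 with the length trend removed). Uqcrh, the hinge protein that binds cytochrome c1, had 68.7, 77.6, 95.6, 77.7 and 63.4 CPM in the deletion libraries, against 91.7, 90.8, 90.3, 91.3 and 84.5 CPM in the wild-type libraries. Deletion 4 was the highest of all 10 libraries for Uqcrh, while the other 4 deletion libraries lay below the wild-type range (log2 fold change -0.23, SE 0.09, edgeR adjusted p = 0.301). DESeq2 called Uqcrfs1 and Uqcrq lower.

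Complex IV, or cytochrome c oxidase, has a catalytic core from mitochondrial genes, and its nuclear subunits surround that core. The 11 subunits expressed across tissues were below 0 in 11 of 11 cases (median log2 fold change -0.19), and 8 had an unadjusted p under 0.05 (background 4.92%). With the length trend removed the median was -0.08, 10 of 11 were below 0, and 2 were lower at an unadjusted p under 0.05 (background 3.45%). Removing GC content along with length gave a median of -0.02 and 1 such subunit (background 4.55%).

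Cox7c, a small subunit that crosses the inner membrane, had 58.2, 67.3, 59.7, 59.0 and 60.5 CPM in the deletion libraries, against 75.7, 78.5, 82.7, 81.4 and 74.1 CPM in the wild-type libraries. Deletion 3 was the highest of its group and still lay below every wild-type library. The gene fell by 22.3% (-0.36 in log2 fold change, SE 0.07, 95% interval -0.50 to -0.23; edgeR adjusted p = 0.0373). With the length trend removed its log2 fold change was -0.19 (SE 0.07, edgeR adjusted p = 0.545), and with GC content removed as well it was -0.09. Leaving out any 1 library other than deletion 3, deletion 4 or wild-type 2 ended this call, with edgeR adjusted p of 0.0818 to 0.173 and log2 fold changes of -0.39 to -0.34. Its pseudogene Cox7c-ps1 held 4 to 11 counts per library.

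Cox5b, the zinc-binding subunit on the matrix side, had 56.2, 57.4, 52.9, 48.9 and 54.2 CPM in the deletion libraries, against 65.5, 74.6, 66.7, 69.9 and 62.7 CPM in the wild-type libraries. Again every deletion library was below every wild-type library (log2 fold change -0.33, SE 0.07, edgeR adjusted p = 0.0688). Cox6b1, which faces the intermembrane space, had 109, 115, 123, 101 and 99.8 CPM in the deletion libraries, against 133, 135, 133, 130.5 and 125 CPM in the wild-type libraries. The highest deletion library, deletion 4, came close to wild-type 6, the lowest of its group (log2 fold change -0.26, SE 0.07, edgeR adjusted p = 0.102). Cox8a, the smallest subunit, stood at 106 ± 5.93 CPM in the deletion group and 126 ± 7.78 CPM in the wild-type group (log2 fold change -0.25, SE 0.06, edgeR adjusted p = 0.102) and Ndufa4, first assigned to complex I and now placed in complex IV, at 119 ± 3.18 CPM in the deletion group and 136 ± 7.66 CPM in the wild-type group (log2 fold change -0.19, SE 0.06, edgeR adjusted p = 0.188), both without overlap. DESeq2 called these 4 and Cox7c lower. Cox4i1, the largest nuclear subunit, stood at 239.7 ± 23.9 CPM in the deletion group and 269 ± 8.13 CPM in the wild-type group (log2 fold change -0.16, SE 0.07, edgeR adjusted p = 0.365), and with the length trend removed its log2 fold change was 0.00 (-0.0035). Cox6a1 had a log2 fold change of -0.13 (SE 0.07), Cox7a2 -0.19 (SE 0.08) and Cox7b -0.21 (SE 0.08). Cox7a2l, which helps to join complexes III and IV into supercomplexes, stood at 145 ± 10.3 CPM in the deletion group and 150.5 ± 15.2 CPM in the wild-type group (log2 fold change -0.06, SE 0.07).

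**Figure D4:**
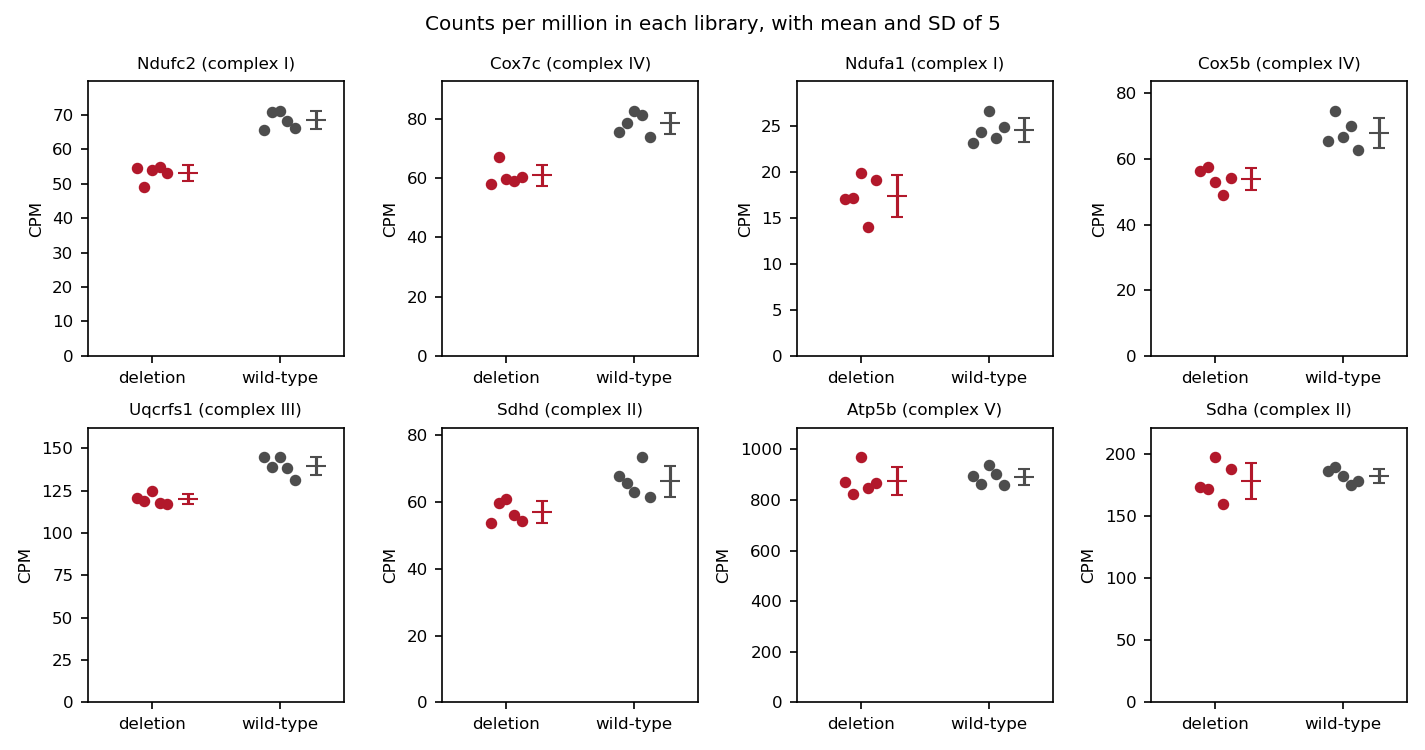
CPM of 8 members in each of the 5 deletion libraries and 5 wild-type libraries (points), with mean and SD of each group beside them; each axis starts at 0. The groups do not overlap for Ndufc2, Cox7c, Ndufa1, Cox5b, Uqcrfs1 and Sdhd, and they overlap for Atp5b and Sdha.

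Several complex IV subunits exist as isoforms, and in both groups nearly all of the level of each pair came from the isoform used in most tissues. Cox4i2, the isoform known from lung and from low oxygen, gave 0.297% ± 0.149 of the Cox4i level per kb of transcript in the deletion group and 0.426% ± 0.0816 in the wild-type group (SD, n = 5 each). Its level was 0.985, 0.391, 0.397, 0.586 and 1.05 CPM in the deletion libraries, against 1.41, 0.799, 1.16, 1.254 and 0.996 CPM in the wild-type libraries, and 62 counts in the deletion group and 104 in the wild-type group stood behind it (log2 fold change -0.73, SE 0.38, edgeR adjusted p = 0.53). The groups overlapped. Cox6b2, known from testis, gave 2.37% ± 0.748 of the Cox6b level per kb in the deletion group and 1.69% ± 0.107 in the wild-type group; its own log2 fold change was 0.23 (SE 0.30, edgeR adjusted p = 0.851). Cox7a1, the heart and muscle isoform, gave 1.49% ± 0.788 of its level per kb summed with that of Cox7a2 in the deletion group and 1.43% ± 1.07 in the wild-type group. Ndufa4l2, a relative of Ndufa4 known as induced by low oxygen, gave 1.83% ± 0.545 of their joint level per kb in the deletion group and 1.74% ± 0.222 in the wild-type group. The members below the filter on low counts were Cox6a2 (2 counts in the deletion group, 1 in the wild-type group), Cox7b2 (15 counts in the deletion group, 11 in the wild-type group), Cox8b (0 in both) and Cox8c (3 counts in the deletion group, 0 in the wild-type group). Cox6a2 and Cox8b are heart and muscle isoforms, and Cox7b2 and Cox8c are known from testis. No fold change is given for these 4.

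Complex V has a catalytic F1 head in the matrix, a ring of c subunits that turns in the membrane, a peripheral stalk that holds the head still, and small membrane subunits that shape its dimers. Its most abundant transcripts were those of the head. Atp5b, the catalytic beta subunit, had 870.0, 824, 968, 846 and 868 CPM in the deletion libraries, against 892, 862, 938, 901 and 860.3 CPM in the wild-type libraries. The ranges overlapped widely, and deletion 4 was the highest of all (log2 fold change -0.03, SE 0.06, 95% interval -0.16 to 0.10). Atp5a1, the alpha subunit that forms the hexamer with it, stood at 827 ± 63.9 CPM in the deletion group and 843 ± 28.3 CPM in the wild-type group (SD, n = 5 each; log2 fold change -0.03, SE 0.06, 95% interval -0.16 to 0.11). Atp5c1, the gamma subunit that forms the turning shaft, stood at 189.7 ± 8.34 CPM in the deletion group and 200.2 ± 18.9 CPM in the wild-type group (log2 fold change -0.08, SE 0.07, 95% interval -0.21 to 0.06). Atp5e, the small epsilon subunit of the shaft, had 83.3, 79.7, 99.0, 75.3 and 64.1 CPM in the deletion libraries, against 99.7, 109, 87.3, 101 and 95.6 CPM in the wild-type libraries. Deletion 4 reached into the wild-type range and the other 4 deletion libraries did not (log2 fold change -0.29, SE 0.09, edgeR adjusted p = 0.194).

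The 4 peripheral stalk genes were lower in 4 of 4 cases (median log2 fold change -0.14, 2 with an unadjusted p under 0.05), and the 5 membrane subunits in 5 of 5 (median -0.16, 2 with an unadjusted p under 0.05). Of all tested genes 4.92% were lower at that level. Once the length trend was removed the median of the stalk genes turned to 0.01, with 2 of 4 lower and 1 at an unadjusted p under 0.05 (background 3.45%). That of the membrane subunits was -0.14, with 4 of 5 lower and 1 at that level, and it was -0.0058 when the trend was fitted on RefSeq-matched lengths. Atp5pb, subunit b of the stalk, had 232, 235, 219, 238 and 233 CPM in the deletion libraries, against 261, 255, 312, 256 and 255 CPM in the wild-type libraries. The groups did not overlap, and deletion 4 was the lowest deletion library here rather than the highest (log2 fold change -0.21, SE 0.06, edgeR adjusted p = 0.188). Wild-type 4 stood far above its group, and without it the log2 fold change was -0.15 (edgeR adjusted p = 0.435). Atp5k, subunit e of the dimer interface, had 11.9, 15.5, 17.3, 9.48 and 10.9 CPM in the deletion libraries, against 18.8, 20.9, 16.5, 18.6 and 19.0 CPM in the wild-type libraries. Deletion 4 alone lay above the lowest wild-type library (log2 fold change -0.53, SE 0.14, edgeR adjusted p = 0.128). The transcript of Atp5k is 371 bases long, and with the length trend removed its log2 fold change was -0.34 (SE 0.12). In complex V edgeR called no member, and DESeq2 called none of the 16 to which it gave an adjusted p, which left out Atp5k. With no filter on low counts edgeR called Atp5k (background 0.188%), and without deletion 4 it called Atp5d, Atp5e, Atp5g3, Atp5j2 and Atp5k, all lower. In the full set 6 of 17 had an unadjusted p under 0.05 in edgeR and all 6 were lower (background 4.92%).

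The c subunit is made from 3 genes, Atp5g1, Atp5g2 and Atp5g3, which encode the same mature protein behind different targeting sequences. Atp5g1 gave 30.2% ± 1.84 of their joint level per kb in the deletion group and 27.96% ± 1.67 in the wild-type group (SD, n = 5 each). Atp5g2 gave 29.3% ± 1.004 in the deletion group and 29.7% ± 1.16 in the wild-type group, and Atp5g3 gave 40.6% ± 1.64 in the deletion group and 42.4% ± 2.02 in the wild-type group. The shares overlapped between the groups for all 3 genes. Atp5g1 had 87.0, 77.1, 103, 83.3 and 84.8 CPM in the deletion libraries, against 82.3, 88.7, 91.2, 92.4 and 79.8 CPM in the wild-type libraries. Its log2 fold change was 0.00 (0.0035, SE 0.08), and its sign turned with the scaling, at -0.0034 with upper-quartile factors. Atp5g2 stood at 104 ± 14.7 CPM in the deletion group and 113 ± 7.42 CPM in the wild-type group (log2 fold change -0.12, SE 0.08) and Atp5g3 at 140.4 ± 14.7 CPM in the deletion group and 158 ± 10.7 CPM in the wild-type group (log2 fold change -0.17, SE 0.07, unadjusted p = 0.0286, edgeR adjusted p = 0.399).

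Per length of transcript, subunits of one complex differed widely in level. Levels per kb are given as CPM divided by the shortest matched RefSeq transcript length, which was found for 86 members. Atp5b was the highest, at 457 CPM per kb in the deletion group and 465 CPM per kb in the wild-type group, followed in complex V by Atp5a1 at 335 CPM per kb in the deletion group and 341 CPM per kb in the wild-type group, while Atp5k was the lowest of that complex at 35.1 CPM per kb in the deletion group and 50.6 CPM per kb in the wild-type group. In complex IV, Cox4i1 was the highest at 322 CPM per kb in the deletion group and 360.5 CPM per kb in the wild-type group and Cox4i2 the lowest of those tested at 0.938 CPM per kb in the deletion group and 1.54 CPM per kb in the wild-type group. In complex I, Ndufa7 of the matrix arm was the highest at 137 CPM per kb in the deletion group and 158 CPM per kb in the wild-type group, and Ndufb8 the lowest at 6.24 CPM per kb in the deletion group and 8.83 CPM per kb in the wild-type group. Uqcrh led complex III with 140.0 CPM per kb in the deletion group and 164 CPM per kb in the wild-type group, and Uqcrq had the least with 34.5 CPM per kb in the deletion group and 44.7 CPM per kb in the wild-type group. Sdhb led complex II with 108 CPM per kb in the deletion group and 108 CPM per kb in the wild-type group, and Sdhc had the least with 35.4 CPM per kb in the deletion group and 34.5 CPM per kb in the wild-type group. The median level of a complex was 144 CPM per kb in the deletion group and 155 in the wild-type group for complex V. It was 137 CPM per kb in the deletion group and 149.7 in the wild-type group for complex IV, and 82.8 CPM per kb in the deletion group and 83.4 in the wild-type group for complex III. Complex I had 58.0 CPM per kb in the deletion group and 62.3 in the wild-type group, and complex II 53.8 CPM per kb in the deletion group and 58.2 in the wild-type group. These medians are over the tested members with a matched length, which in complex IV include 4 tissue-restricted isoforms at low levels. The 11 complex IV subunits expressed across tissues had a median of 177.2 CPM per kb in the deletion group and 212.5 in the wild-type group. Both values lie above those of complex V. By the matched length and with those isoforms included, the order of the complexes was the same in both groups. 25 of the 86 members have another transcript over 1.5 times as long, and levels by the longest transcript had a Spearman's rho of 0.76 with those used here. By the longest transcript the lowest gene of complex V was Atp5l, at 8.42 CPM per kb in the deletion group and 8.90 CPM per kb in the wild-type group, so the place of Atp5k depends on the length used.

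**Figure D5:**
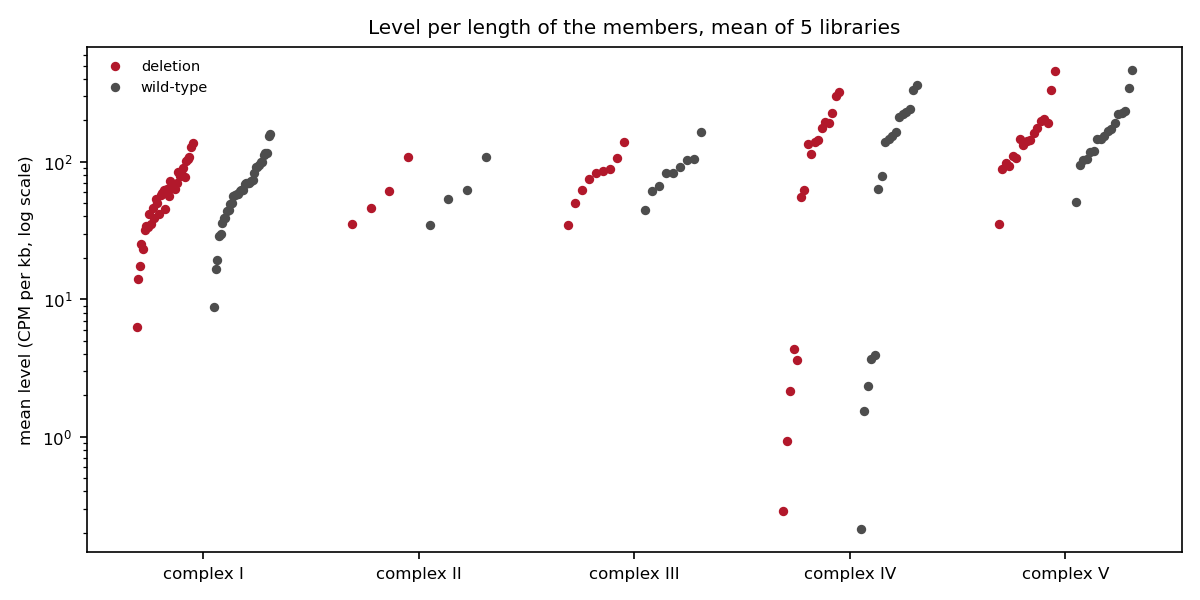
Mean level of members per kb of transcript (CPM per kb, log axis, 5 libraries per group) by complex, with members ordered by their wild-type level and the deletion group left of the wild-type group. Atp5b is the highest, at 457 CPM per kb in the deletion group and 465 CPM per kb in the wild-type group; Cox6a2, Cox8b and Cox8c, at or near 0, and Ndufb1, Ndufb4b and Ndufb4c, with no matched length, are not drawn.

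Promoter windows were read for the members that passed and for the 3 c subunit genes, which encode the same mature protein. RefSeq's promoter table for GRCm38.p6 gave a window of 250 bases before to 50 bases from the transcription start for 71 of the 89 members. They are printed 5′ to 3′ on the gene's strand, and capitals mark matches on either strand to the palindromic NRF1 core CGCATGCG, the ETS core CCGGAAG, the YY1 site AAGATGGCG, the GC box GGGCGG or the CCAAT box. NRF1 and ETS proteins of the GABP (NRF2) type are the factors best known for driving nuclear respiratory genes.
Ndufc2 (chr7:97399753-97400052, + strand): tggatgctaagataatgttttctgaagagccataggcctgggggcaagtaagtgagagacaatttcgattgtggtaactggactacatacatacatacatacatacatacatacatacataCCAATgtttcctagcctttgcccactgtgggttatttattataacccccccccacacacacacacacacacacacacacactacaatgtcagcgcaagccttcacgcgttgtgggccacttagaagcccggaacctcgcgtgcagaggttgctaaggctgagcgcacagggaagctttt
Cox7c (chr13:86046746-86047045, - strand): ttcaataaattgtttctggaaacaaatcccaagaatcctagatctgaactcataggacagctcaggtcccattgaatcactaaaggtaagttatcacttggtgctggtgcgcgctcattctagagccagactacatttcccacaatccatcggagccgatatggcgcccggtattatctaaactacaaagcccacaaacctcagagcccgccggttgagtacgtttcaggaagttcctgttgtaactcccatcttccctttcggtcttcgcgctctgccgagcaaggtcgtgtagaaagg
Atp5g1 (chr11:96075582-96075881, - strand): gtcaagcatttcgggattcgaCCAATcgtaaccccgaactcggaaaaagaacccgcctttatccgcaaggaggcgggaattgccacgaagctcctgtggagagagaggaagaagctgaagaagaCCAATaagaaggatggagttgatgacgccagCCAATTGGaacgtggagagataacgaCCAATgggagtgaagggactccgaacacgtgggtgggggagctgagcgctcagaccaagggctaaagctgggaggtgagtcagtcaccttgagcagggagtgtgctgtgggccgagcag
Atp5g2 (chr15:102670998-102671297, - strand): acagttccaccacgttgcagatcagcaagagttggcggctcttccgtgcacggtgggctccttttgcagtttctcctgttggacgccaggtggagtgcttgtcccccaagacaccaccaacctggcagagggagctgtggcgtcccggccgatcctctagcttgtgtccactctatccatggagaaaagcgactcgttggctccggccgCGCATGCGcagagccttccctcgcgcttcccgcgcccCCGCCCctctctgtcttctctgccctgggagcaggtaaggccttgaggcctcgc
Atp5g3 (chr2:73911277-73911576, - strand): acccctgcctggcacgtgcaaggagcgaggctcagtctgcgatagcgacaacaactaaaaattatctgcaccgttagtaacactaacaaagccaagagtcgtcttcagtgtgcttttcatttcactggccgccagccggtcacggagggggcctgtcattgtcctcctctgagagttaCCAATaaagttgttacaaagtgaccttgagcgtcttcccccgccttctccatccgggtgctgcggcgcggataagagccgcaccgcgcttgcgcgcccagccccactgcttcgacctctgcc
The Ndufc2 window holds 1 CCAAT box, and the Cox7c window holds no match to the 5 spellings. Atp5g1 has 5 CCAAT matches, of which the pair in CCAATTGG overlap on opposite strands. Atp5g2 has 1 NRF1 core, beginning 41 bases before the start, and 1 GC box, and Atp5g3 has 1 CCAAT box. Of the 3 genes for 1 protein, Atp5g1 and Atp5g3 thus hold only CCAAT matches, in different numbers. Atp5g2 holds other motifs and no CCAAT match.

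Over the 71 members with a window, the NRF1 core was found in 9 (12.7%), against 3.92% of the 11975 tested genes with a window. The ETS core was found in 17 (23.9%), against 18.2%, and the YY1 site in 7 (9.86%), against 3.12%. The GC box was found in 29 (40.8%), against 67.0%, and the CCAAT box in 30 (42.3%), against 42.7%. The NRF1 core lay in the windows of Atp5g2, Atp5j, Atp5k, Atp5l, Cox6a1, Ndufa8, Ndufa11, Uqcr11 and Uqcrc1, and the YY1 site in those of Atp5j, Atp5j2, Ndufa9, Ndufc1, Ndufs4, Ndufs6 and Ndufs7. In 2 member windows matches overlapped. The fold changes of the NRF1 members ran from -0.53 in Atp5k to 0.03 in Uqcrc1. These spellings were kept after the shares of other spellings had been seen, and the shares are given as a description.

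Genes that serve these complexes without being subunits are given beside them, with no test of the difference. Over all tested genes 50.7% were below 0. At an unadjusted p under 0.05, 4.92% of all tested genes were lower and 5.62% higher. Assembly factors were lower in 34 of 45 tested cases and higher in 11, with a median log2 fold change of -0.11; 6 were lower and 1 higher at an unadjusted p under 0.05. Ndufaf2, an assembly factor of complex I, stood at 11.3 ± 1.40 CPM in the deletion group and 15.2 ± 1.26 CPM in the wild-type group (log2 fold change -0.42, SE 0.12, edgeR adjusted p = 0.151), and Uqcc2, which serves complex III, at 28.9 ± 2.12 CPM in the deletion group and 34.5 ± 3.89 CPM in the wild-type group (log2 fold change -0.26, SE 0.09, edgeR adjusted p = 0.275). Genes of protein import and inner membrane organisation were lower in 22 of 25 cases (median -0.11, 5 lower at an unadjusted p under 0.05), led by Tomm7 of the outer membrane translocase (log2 fold change -0.46, SE 0.12, edgeR adjusted p = 0.115) and the import chaperone Timm13 (log2 fold change -0.32, SE 0.10, edgeR adjusted p = 0.185). Other electron and exchange carriers were lower in 10 of 12 cases (median -0.04, 3 at an unadjusted p under 0.05). Slc25a4, which exchanges ADP for ATP across the inner membrane, had 436, 448, 418, 408 and 467 CPM in the deletion libraries, against 500.3, 517, 536, 497 and 495 CPM in the wild-type libraries, with no overlap (log2 fold change -0.23, SE 0.06, edgeR adjusted p = 0.13). Etfb, a subunit of the electron transfer flavoprotein, had a log2 fold change of -0.33 (SE 0.11, edgeR adjusted p = 0.252).

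The TCA cycle and pyruvate dehydrogenase genes were lower in 13 of 18 cases (median -0.04). At an unadjusted p under 0.05, 3 were lower (background 4.92%) and 1 higher (background 5.62%). Ogdh, the E1 subunit of oxoglutarate dehydrogenase, was the higher gene, at 138 ± 9.49 CPM in the deletion group and 109.9 ± 11.7 CPM in the wild-type group (log2 fold change 0.33, SE 0.07, edgeR adjusted p = 0.0757), and Idh3b, a subunit of NAD-dependent isocitrate dehydrogenase, stood at 114 ± 3.96 CPM in the deletion group and 127 ± 2.84 CPM in the wild-type group (log2 fold change -0.15, SE 0.06, edgeR adjusted p = 0.32). Regulators of mitochondrial genes were higher in 11 of 17 cases and lower in 6 (median 0.05; 2 higher and 0 lower at an unadjusted p under 0.05, with no call by edgeR over all genes). Pprc1, a coactivator related to PGC-1 alpha, had 37.6, 34.6, 45.6, 38.0 and 37.3 CPM in the deletion libraries, against 33.4, 28.5, 27.6, 32.3 and 33.1 CPM in the wild-type libraries, and every deletion library lay above every wild-type library (log2 fold change 0.32, SE 0.09, edgeR adjusted p = 0.16). Ppargc1a, which encodes PGC-1 alpha, the coactivator best known for raising mitochondrial gene expression, stood at 27.9 ± 4.97 CPM in the deletion group and 22.6 ± 2.83 CPM in the wild-type group (log2 fold change 0.30, SE 0.12, edgeR adjusted p = 0.344). No gene of these 5 lists passed edgeR's test over all genes in the full set. DESeq2 called Ogdh (adjusted p = 0.00392) and Pprc1 (adjusted p = 0.0369) higher and Slc25a4 (adjusted p = 0.00495) lower. Ogdh also passed edgeR with length and GC trends removed (log2 fold change 0.28, adjusted p = 0.0266), with no filter and without wild-type 2. Over all genes, these fits called 7 of 15288, 26 of 22889 and 57 of 15429 higher, in that order. Without deletion 4, edgeR called Ogdh and Ppargc1a higher (adjusted p = 0.0191 and 0.0445). In that fit it called Cox14, Slc25a4 and Timm13 lower (adjusted p = 0.0356 to 0.0442). Of all 15433 genes in that fit, 137 were called higher and 220 lower. The list medians without the length trend were -0.06 for assembly factors, -0.04 for import genes, -0.02 for carriers, -0.01 for TCA cycle genes and 0.02 for regulators, where that of the members was -0.05. The lists differ in length as well: the median RefSeq length was 1488 bases for assembly factors, 1515 bases for import genes, 1940 bases for carriers, 2512 bases for TCA cycle genes and 2701 bases for regulators.

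Summed levels of cell type markers overlapped between the groups. Neuronal markers summed to 7297 to 8480 CPM in the deletion libraries and 7786 to 8106 CPM in the wild-type libraries, and progenitor markers to 933.8 to 1322 CPM in the deletion libraries and 1014 to 1310.0 CPM in the wild-type libraries. Of the progenitor markers 5 of 6 were lower (median log2 fold change -0.13, and -0.06 with the length trend removed), 1 of them at an unadjusted p under 0.05. Of the neuronal markers 2 of 6 were lower (median 0.02). Over all tested genes 50.7% were below 0, and 4.92% were lower at an unadjusted p under 0.05. Red blood cell genes, which are short at a median of 699 bases, were higher in 7 of 7 tested cases (median log2 fold change 0.15, and 0.32 with the length trend removed), at 2234 to 2981 CPM in the deletion libraries and 1699 to 2555 CPM in the wild-type libraries. The part of cell makeup in the levels of the members was not tested.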

How the data were processed

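RNA-seq of midbrains from embryonic day 14.5 gave 10 libraries, 5 from embryos homozygous for the HAR.321 deletion and 5 from wild-type embryos. Per the labels' protocols, total RNA was prepared with the Direct-zol kit. The authors deposited whole-number counts per Entrez gene with no normalization, from HISAT2 alignment to mm39 and featureCounts, per the submitters' processing notes. Tool versions, annotation, strandedness and the handling of reads with several matches were not found in the sources used here. Overlapping, antisense and near-identical genes may therefore share or lose reads. Nothing states litters or batches, so p-values measure the spread between these libraries.

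Symbols came from RefSeq's GRCm38.p6 gene table (30648 of 30935 IDs; the rest held 0.0116% of the counts). No 2 libraries were duplicates (lowest chi-square per degree of freedom 5.79). Counts were tested in edgeR 4.0.16 (R 4.3.3) with filterByExpr, TMM, a robust quasi-likelihood fit on group over all 15288 genes, and Benjamini-Hochberg adjustment at 0.05. CPM are TMM-scaled, with a prior count of 2 on the log2 scale. Length and GC trends were splines with 4 degrees of freedom on the longest GENCODE M21 transcript, known for 14119 of the tested genes. They were fitted per library to those of these genes above a mean log2 CPM of 3. Levels per kb used the shortest RefSeq-matched transcript, a choice made after seeing the data. The test was also run on simulated counts.

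Named were members past the threshold, and in each complex the 3 with the smallest p and the highest and lowest per kb; all Sdh, catalytic or core genes, isoform pairs and members above 0; Rbfox1; and 2 genes per pathway list. 1 member under this rule is not reported here and counts only in totals. Members, lists and alternatives were chosen with earlier results of these data known. Alternatives were RLE and upper-quartile factors, no filter, at least 1 CPM in at least 5 libraries, DESeq2 1.42.0, limma-voom (limma 3.58.1), the replicate number as a block, length and GC trends, and leaving out each library. The trend on RefSeq-matched length was added after seeing the data.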

Additional observations from a re-analysis of the deposited data

Results flagged for a closer look

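In 7 of 106 groups of 5 libraries checked over the members chosen by the naming rule, 1 library stood so far from the rest that its gap to the nearest neighbour exceeded 0.71 of the group's range, which chance gives in about 1 in 20 groups. In the deletion group, deletion 4 stood above the others for Atp5a1 (gap 0.899 of the range), Cox7a2l (0.775) and Ndufs7 (0.796), and deletion 3 stood above the others for Cox7c (0.742). In the wild-type group, wild-type 4 stood above the others for Atp5pb (0.905) and Atp5c1 (0.812), and wild-type 6 stood below the others for Uqcrh (0.812). Without deletion 4 the log2 fold change of Ndufs7 was -0.09, against 0.04 with it.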

How the results depend on the processing

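The shift of the members to lower levels in the deletion group kept its direction under all 20 alternatives, with a median log2 fold change from -0.20 without deletion 4 to -0.0353 with length and GC trends removed. It was -0.0487 with the length trend removed and -0.0552 with the RefSeq-matched length trend removed. Leaving out each library in turn gave medians of -0.20 to -0.11, between 0 and 357 genes passing and between 0 and 23 members passing, against 9 genes and 2 members in the full set. Passing genes and members were 69 and 7 with no filter, 248 and 13 in DESeq2, 15 and 2 with upper-quartile factors, 0 and 0 with the length trend or the RefSeq-matched length trend removed, and 18 and 0 with length and GC trends removed. Members lower at an unadjusted p under 0.05 were 15 with the length trend removed (background 3.45%). They were 16 with length and GC trends removed (background 4.55%). With the RefSeq-matched length trend removed they were 18, and the share over all genes was not computed for that fit. With the replicate number as a block, 0 genes and 0 members passed. In that fit 25 members were lower at an unadjusted p under 0.05, and the share over all genes was not computed. Deviations of same-numbered libraries had correlations of -0.13 to 0.12 over the 4 shared numbers, and 0 of 4 deletion libraries correlated best with their own number, so the numbers were not taken as pairs. Why these counts moved was not tested, and leaving 1 library out also lowers the number of libraries.

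Cox7c passed under 9 of the 20 alternatives and Ndufc2 under 8, both with log2 fold changes below 0 throughout (-0.41 to -0.09 and -0.38 to -0.18). Adjusted p ran from 9.48e-05 to 0.706 for Cox7c and from 3.99e-05 to 0.566 for Ndufc2. Of 918 values of the 46 members chosen by the naming rule, 822 kept direction and side of the threshold, 23 no longer passed, 29 passed newly and 44 turned in sign, none of those past the threshold in either setting. The log2 fold changes of the other sign were 0.017 for Cox7a1 in limma-voom, -0.0022 for Atp5g1 with no filter, 0.0011 for Sdhb with the replicate block and -0.0034 for Atp5g1 with upper-quartile factors. With the length trend removed they were 0.001 for Atp5a1, 0.0399 for Atp5b, 0.0014 for Atp5c1, -0.0284 for Atp5g1, 0.0378 for Atp5g2, 0.0492 for Cox6a1, 0.0738 for Cox7a1, 0.0648 for Cox7a2l, 0.0348 for Ndufa4l2, 0.0622 for Ndufs3, 0.0077 for Ndufs8, 0.0143 for Ndufv1 and 0.1032 for Sdhb. Removing GC along with length gave 0.0234 for Atp5b, -0.0274 for Atp5g1, 0.0428 for Atp5g2, 0.0529 for Cox6a1, 0.0615 for Cox7a1, 0.0636 for Cox7a2l, 0.0265 for Ndufa4l2, 0.0458 for Ndufs3 and 0.0855 for Sdhb. The RefSeq-matched length trend gave 0.0118 for Atp5b, 0.0063 for Atp5c1, 0.0058 for Cox7a1, 0.0304 for Cox7a2l, 0.0215 for Ndufs3 and 0.0736 for Sdhb. Values left after taking out 1 library spanned 0 for 7 members, at -0.0641 to 0.0388 for Atp5g1, -0.5004 to 0.2794 for Cox7a1, -0.0127 to 0.1175 for Ndufb4b, -0.0902 to 0.0935 for Ndufs7, -0.0582 to 0.0466 for Sdhb, -0.0056 to 0.064 for Sdhc and -0.0038 to 0.0523 for Uqcrc1. The low counts of Ndufb8 and of the tissue-restricted isoforms limit their precision.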
